A study of Mus musculus with 6 samples.

Results

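The enzymes that carry glucose through glycolysis, the pentose phosphate pathway and glycogen metabolism were read in mouse white fat, for 34 genes named by gene symbol. An array probe set with that single symbol was found for 29 of them, and the probe set with the highest mean over the 6 arrays stood for the gene. Of these, 28 passed the filter on low levels and were tested among 12513 genes. Eno2, the neuronal enolase, lay below the filter, Gapdh was read only through the array's control probe sets, and Gpi1, Pfkfb1, Eno1 and G6pdx were not analysed here.

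The tissue was the epididymal fat pad of male C57BL/6 mice aged 16 weeks, kept on chow and sampled while feeding freely. All animals carried the floxed Fto allele on both chromosomes. The control group (FTO flox/flox) had 3 arrays, and the AFO group, which also carried Adiponectin-cre, had 3 arrays, each hybridised with an independent RNA pool numbered 1 to 3 within its group. The adiponectin promoter drives Cre in fat cells, so the other cells of the pad keep the floxed gene, and whole tissue RNA holds both; fewer cells of a type and less RNA per cell cannot be told apart in it. How many mice made up a pool is not given in the sources used here, so the p-values measure the spread between pools.

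Glycolysis splits glucose into pyruvate, with hexokinase, phosphofructokinase and pyruvate kinase as its main control points. The pentose phosphate pathway branches off at glucose 6-phosphate and yields NADPH, which fat cells use to make fatty acids, while glycogen synthase and glycogen phosphorylase build and break down the glucose store. Many steps are served by several isoforms that different tissues favour: PFKM and PGAM2 are the muscle forms of phosphofructokinase and phosphoglycerate mutase, PFKL and PGAM1 the forms of liver and of most tissues, and ALDOC the aldolase of brain.

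Several array-wide facts touch the results. The level of Fto ranged from 5.59 to 6.20 log2 units in the controls and from 5.45 to 6.13 in the arrays labelled AFO, with a difference of -0.12 (SE 0.25), so the groups overlapped; whether its probe set lies in the deleted part is not known here. The adipocyte marker list was high on every array, with a summed level of 15.25 to 15.66 on the log2 scale, and its 10 tested genes were all lower in AFO with 0 called. The pool 2 arrays stood apart in both genotypes. Their summed level of B cell markers was 10.82 in the control and 11.46 in AFO, against 7.58 to 8.18 elsewhere, and their mesothelial sum was 8.57 and 7.61 against 10.82 to 11.06. Skeletal muscle markers summed to 9.90, 13.29 and 8.92 in control pools 1, 2 and 3 and to 13.41, 15.60 and 9.36 in AFO pools 1, 2 and 3.

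The windows before the starts of the muscle and general forms of phosphoglycerate mutase and phosphofructokinase are shown because these isoform pairs differed most across the arrays. Each holds the 250 bases before the RefSeq start in GRCm38.p6, read 5′ to 3′ on the gene's own strand. Pgam2 lies at chr11:5803797-5804046 on the minus strand, Pgam1 at chr19:41911621-41911870 on the plus strand, Pfkm, at the most upstream of its 4 listed starts, at chr15:98092339-98092588 on the plus strand, and Pfkl at chr10:78009808-78010057 on the minus strand. Capitals mark matches to the E-box forms CAGCTG and CACCTG, which muscle regulatory factors can bind, to the MEF2 consensus, or to ACGTG, the core of the hypoxia response element.
Pgam2: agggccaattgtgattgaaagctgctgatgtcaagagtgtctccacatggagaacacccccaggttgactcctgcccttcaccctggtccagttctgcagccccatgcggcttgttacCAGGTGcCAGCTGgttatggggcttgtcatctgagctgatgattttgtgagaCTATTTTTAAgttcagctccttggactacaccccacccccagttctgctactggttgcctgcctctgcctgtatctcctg
Pgam1: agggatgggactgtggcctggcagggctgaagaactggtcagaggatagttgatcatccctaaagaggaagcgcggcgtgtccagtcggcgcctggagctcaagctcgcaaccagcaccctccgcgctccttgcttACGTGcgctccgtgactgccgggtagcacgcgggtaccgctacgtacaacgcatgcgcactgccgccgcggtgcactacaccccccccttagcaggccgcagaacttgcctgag
Pfkm: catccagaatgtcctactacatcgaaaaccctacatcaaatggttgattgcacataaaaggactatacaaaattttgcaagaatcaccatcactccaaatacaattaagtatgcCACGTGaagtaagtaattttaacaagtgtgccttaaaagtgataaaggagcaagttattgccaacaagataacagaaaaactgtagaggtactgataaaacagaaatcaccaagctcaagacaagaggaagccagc
Pfkl: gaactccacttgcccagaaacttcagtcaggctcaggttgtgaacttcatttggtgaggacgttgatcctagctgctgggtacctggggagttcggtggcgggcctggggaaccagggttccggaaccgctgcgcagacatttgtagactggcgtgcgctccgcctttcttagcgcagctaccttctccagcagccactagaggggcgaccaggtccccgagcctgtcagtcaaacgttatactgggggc

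In the Pgam2 window CAGCTG lay 125 to 120 bases before the start, the other E-box form, found on the opposite strand, 132 to 127 bases before it, and the MEF2 match 80 to 71 bases before it. In the Pgam1 window ACGTG lay 114 to 110 bases before the start. In the Pfkm window it was matched on both strands, overlapping, within the bases 136 to 131 before the start, and the Pfkl window held none of the searched letters. Of the 3 other Pfkm windows, not printed, 2 held CACCTG and 1 held ACGTG. With both strands searched, ACGTG was in 17 of 39 windows of the tested genes (43.6%) and in 16.6% of all 32851 windows. Counted by gene, it was found for 14 of the 27 with windows. Some genes had several windows, and those of Aldoa partly overlapped, so windows are not independent. The difference in share was not tested. The shares for the other motifs were 12.8% against 13.0% for CAGCTG, 15.4% against 17.2% for CACCTG and 2.56% against 2.92% for MEF2. Windows were listed for 27 of the 28 tested genes, Gys2 being the exception.

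No gene of the pathways passed the test between the genotypes. Across all 12513 genes limma called 0% at an adjusted p under 0.05, and 0 of the 28 pathway genes were called; at an unadjusted p under 0.05 the counts were 120 of all genes and 0 of the 28. In AFO 11 of the 28 were higher and 17 lower, and the median difference of -0.02 log2 units stood beside -0.02 over all genes. Differences ran from -0.27 for Tkt to 1.05 for Pgam2, and 25 of the 28 were under 0.5 in size. The 95% interval of a difference reached a median of 0.57 log2 units to each side in this unpaired fit. The adjusted p was 1 for each of the 28 and is not repeated below. Levels are log2 signals of single probe sets, so they are compared between arrays and never between genes.

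**Figure D1:**
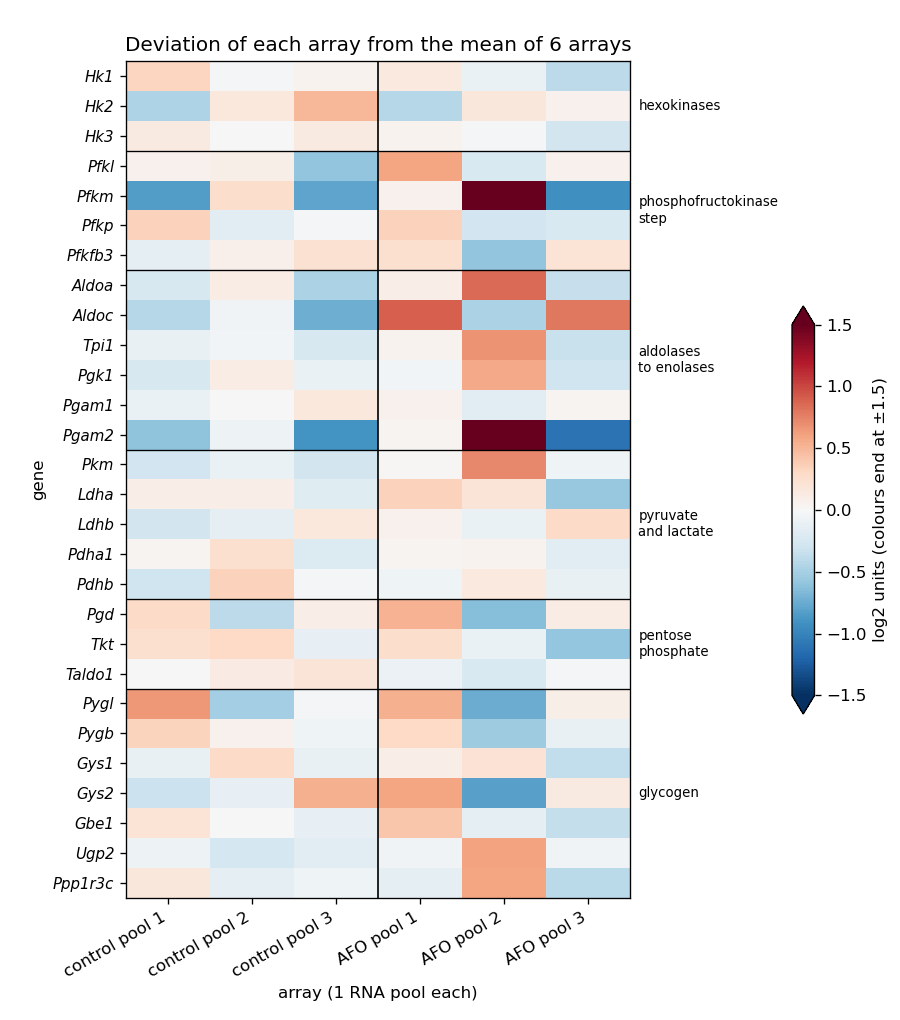
Heat map of the 28 tested pathway genes (rows, grouped by role) on the 6 arrays (columns, control then AFO), where colour gives the log2 level minus the gene's mean over the 6 arrays and ends at 1.5 log2 units to each side. The strongest colour is in Pfkm and Pgam2 on the AFO pool 2 array, at levels of 10.32 and 8.72, while the same genes are below their means on the AFO pool 3 array, at 7.18 and 4.96.

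Genes that trap and commit glucose came first. Hk1, the hexokinase of most tissues, was at 8.49, 8.14 and 8.21 in control pools 1, 2 and 3 and at 8.31, 8.06 and 7.78 in AFO. It was lower in AFO within each pool, by 0.08 to 0.44, but the groups overlapped and the difference was -0.23 (SE 0.18). Its other probe set was lower in AFO within pool 3 (-0.83) but higher within pools 1 and 2 (0.06 and 0.24). Hk2, the insulin-responsive hexokinase of fat and muscle, was at 8.60, 9.22 and 9.56 in the controls and at 8.63, 9.23 and 9.13 in AFO, so its level followed the pool number more than the genotype (difference -0.13, SE 0.28). Hk3, a hexokinase of white blood cells, differed by -0.17 (SE 0.14), and its levels stayed between 6.10 and 6.50. Its other probe set above the filter went the opposite way in each pool, with a difference of 0.26, so its direction is not settled.

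Of the phosphofructokinase genes, Pfkm varied most. It was at 7.27, 8.36 and 7.31 in the controls and at 8.17, 10.32 and 7.18 in AFO. The AFO pool 2 array was the highest and the AFO pool 3 array the lowest of all 6, and the highest was 8.80 times the lowest. The difference of 0.91 had an SE of 0.79. Pfkl was at 7.84, 7.86 and 7.18 in the controls and at 8.37, 7.54 and 7.84 in AFO, a difference of 0.29 (SE 0.28) with overlapping groups. Pfkp, the platelet form, and Pfkfb3, which makes the activator fructose 2,6-bisphosphate, differed by -0.11 (SE 0.22) and -0.10 (SE 0.25).

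Among the aldolases, mutases and kinases of the middle of the pathway, Pgam2 was at 5.47, 6.00 and 5.18 in the controls and at 6.11, 8.72 and 4.96 in AFO. The levels of both pool 3 arrays lay under the 5.22 filter, so no fold is given. The AFO pool 2 array again was highest and AFO pool 3 lowest, and the genotype difference of 1.05 had an SE of 0.90. Pgam1 ranged only from 9.05 to 9.37, a 1.25-fold span, and differed by -0.03 (SE 0.13). Aldoa, the aldolase of muscle and most other tissues, was at 11.13, 11.48 and 10.90 in the controls and at 11.47, 12.22 and 11.03 in AFO. It was higher in AFO within pools 1, 2 and 3 by 0.34, 0.74 and 0.13, with a difference of 0.40 (SE 0.32) and overlapping groups. Its probe set with the lowest level differed by -0.02, 0.65 and -0.43 within those pools, while the rest were higher within each pool.

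Muscle markers moved with these genes. Their 13 tested genes were all higher in AFO with 0 called and a median difference of 2.43, and Acta1, the skeletal muscle actin, was at 9.20, 11.10 and 6.87 in the controls and 11.49, 13.02 and 8.12 in AFO. The median marker difference was 4.40 within pool 1, 2.51 within pool 2 and -0.11 within pool 3. In pool 3, where the marker sum was low in both genotypes, Pfkm differed by -0.13, Pgam2 by -0.21 and Aldoa by 0.13. Without the AFO pool 2 array the differences were 0.03 for Pfkm, -0.01 for Pgam2 and 0.08 for Aldoa. That omission keeps the control pool 2 array, and without both pool 2 arrays they were 0.39, 0.22 and 0.23. The part of muscle RNA in these differences was not tested.

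**Figure D2:**
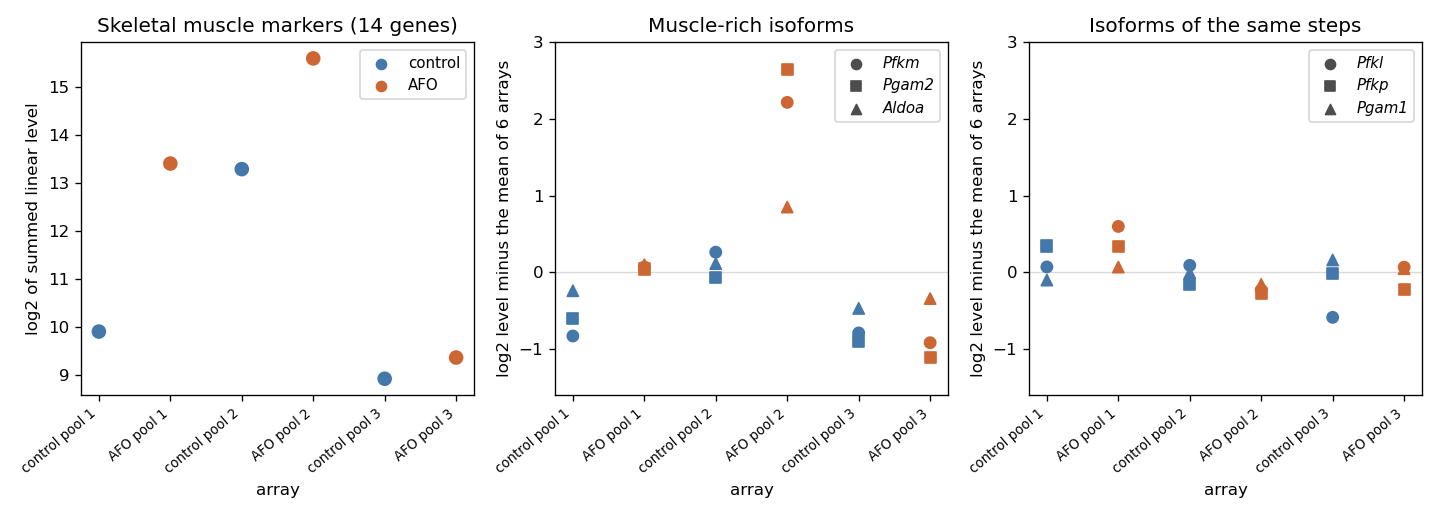
On each of the 6 arrays (x axis, ordered by pool, colour for genotype), the log2 of the summed level of 14 skeletal muscle markers (left), and log2 levels minus the gene's mean over the arrays for Pfkm, Pgam2 and Aldoa (middle) and for Pfkl, Pfkp and Pgam1 (right). The AFO pool 2 array, with the highest marker sum of 15.60, also holds the highest Pfkm, Pgam2 and Aldoa levels.

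Aldoc showed another order of arrays. It was at 5.14, 5.52 and 4.84 in the controls and at 6.47, 5.10 and 6.37 in AFO, so AFO pools 1 and 3 were above every control while AFO pool 2 was below control pools 1 and 2. The difference was 0.82 (SE 0.39). The control mean of 5.16 lay under the 5.22 filter, so Aldoc was tested through its AFO arrays, and its other probe set, below the filter at a mean of 3.18, differed by -0.09. Without both pool 2 arrays, which differed by -0.41, the other way, and whose omission was chosen after seeing the data, the difference was 1.43 (SE 0.18) with a limma adjusted p of 0.0146, and Aldoc was the single pathway gene called there, beside 0.591% of all genes. Without the AFO pool 2 array alone its adjusted p was 0.236. Some genes picked after their values were seen were also high on those 2 AFO arrays: Cldn2, a claudin of leaky epithelia, was at 5.09, 4.52 and 3.93 in the controls and 9.11, 4.51 and 8.44 in AFO, and Mmp7, an epithelial protease, at 6.57, 6.00 and 5.65 and at 10.29, 6.18 and 9.85. What these genes share with Aldoc was not tested.

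Tpi1, which interconverts the triose phosphates, was at 9.74, 9.80 and 9.60 in the controls and at 9.90, 10.52 and 9.51 in AFO (difference 0.26, SE 0.25). Pgk1, the first ATP-yielding enzyme of glycolysis, differed by 0.15 (SE 0.24). Both were highest on the AFO pool 2 array and lowest on the AFO pool 3 array. Without AFO pool 2 the differences were -0.0048 for Tpi1 and -0.09 for Pgk1, and without both pool 2 arrays 0.04 and 0.0014. The 3′ control probe set of Gapdh, whose enzyme oxidises glyceraldehyde 3-phosphate, was at 11.78, 11.43 and 11.22 in the controls and 11.84, 12.07 and 11.10 in AFO, with overlapping groups. Eno2 stayed between 4.28 and 4.59.

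At the pyruvate end, Pkm, pyruvate kinase, was 1 of 3 genes of the pathways whose groups did not overlap, beside 3.43% of all genes tested. It was at 9.51, 9.70 and 9.52 in the controls and at 9.82, 10.52 and 9.74 in AFO. The lowest AFO array lay only 0.04 above the highest control, and the difference was 0.45 (SE 0.23). Pkm was higher in AFO within each pool, by 0.31, 0.82 and 0.22. The muscle sum differed by 3.51, 2.31 and 0.44 within the same pools, and the part of muscle RNA in the Pkm difference was not tested. Without the AFO pool 2 array the Pkm difference was 0.20, and without both pool 2 arrays it was 0.26.

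Ldha, which reduces pyruvate to lactate, was at 10.88, 10.88 and 10.60 in the controls and at 11.12, 10.97 and 10.21 in AFO (difference -0.02, SE 0.25). The heart form Ldhb was higher within each pool but with overlapping groups (0.17, SE 0.17). A single one of its other probe sets was lower within pool 3 (-0.14), and the rest were higher within each pool. Pdha1 and Pdhb, subunits of pyruvate dehydrogenase, differed by -0.05 (SE 0.15) and -0.02 (SE 0.19).

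**Figure D3:**
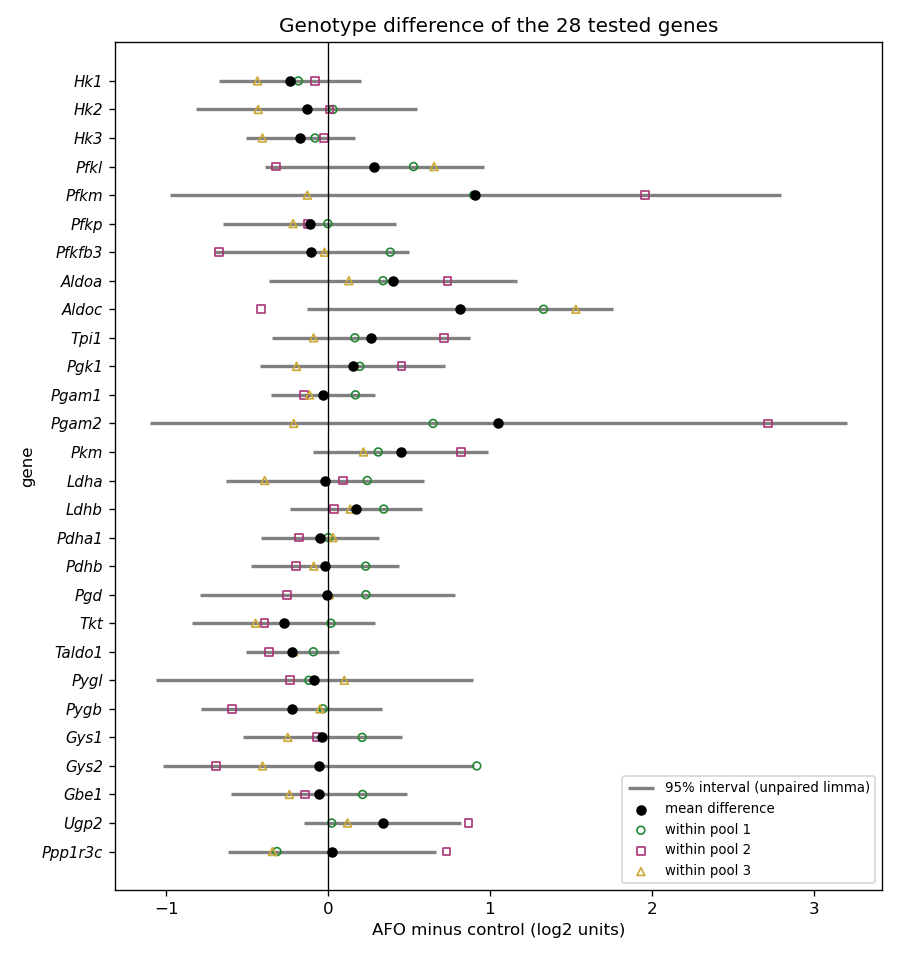
AFO minus control differences (x axis, log2 units) of the 28 tested pathway genes (y axis), where black points are mean differences, bars 95% limma intervals and open symbols the differences within pools 1, 2 and 3. Each interval includes 0, and those of Pgam2 (-1.10 to 3.21) and Pfkm (-0.98 to 2.80) are the widest.

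The 3 tested pentose phosphate genes all had negative differences on the probe sets used, but 0 were called. Taldo1, transaldolase of the non-oxidative branch, was at 10.76, 10.88 and 10.95 in the controls and at 10.67, 10.52 and 10.74 in AFO. Every AFO array was below every control, by 0.02 at the closest, and the difference was -0.22 (SE 0.12). Tkt, the transketolase of the same branch, was at 12.14, 12.20 and 11.78 in the controls and at 12.16, 11.81 and 11.33 in AFO (-0.27, SE 0.24), and the difference was -0.06 without the AFO pool 3 array. Pgd, which yields NADPH in the oxidative branch, was at 10.03, 9.35 and 9.85 in the controls and at 10.26, 9.10 and 9.86 in AFO. Pool 2 was lowest in both genotypes, and the genotype difference was -0.0037 (SE 0.33). The differences of the Pgd probe sets above the filter ran from -0.18 to 0.24, so its direction is not settled.

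Of the glycogen genes, Ugp2, which makes the UDP-glucose that feeds glycogen, was at 10.11, 9.92 and 10.01 in the controls and at 10.13, 10.79 and 10.13 in AFO. The groups did not overlap, by 0.02, but within pools 1, 2 and 3 AFO was higher by 0.02, 0.87 and 0.12. The difference was 0.34 (SE 0.20). Another of the 5 Ugp2 probe sets also separated the groups, but the rest did not, and some of those differed by -0.26 and -0.20 within pool 3. With the mean of probe sets the groups overlapped. Pygl, the liver form of glycogen phosphorylase, was at 10.30, 9.14 and 9.64 in the controls and at 10.19, 8.91 and 9.74 in AFO, so it followed the pool number (-0.08, SE 0.41). Pygb, the brain form, was lower by 0.03, 0.59 and 0.05 within pools 1, 2 and 3 with overlapping groups (-0.23, SE 0.23), and the difference was -0.02 without the AFO pool 2 array.

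Gys2, the liver glycogen synthase, was at 6.18, 6.39 and 7.05 in the controls and at 7.10, 5.70 and 6.64 in AFO, with no genotype order (-0.06, SE 0.40). The muscle and general form Gys1, the branching enzyme Gbe1 and the glycogen-targeting phosphatase subunit Ppp1r3c differed by -0.03 (SE 0.20), -0.06 (SE 0.23) and 0.02 (SE 0.27).

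The balance between isoforms of a step was taken within each array, as the log2 level of one minus that of the other, so that only its change between arrays is read. For 9 of 11 listed pairs both forms were measured, and in 0 of the 9 did the groups separate; with 3 against 3 an exact permutation test cannot go below 0.10, and none was run. The balance of Pgam2 over Pgam1 was -3.64, -3.20 and -4.20 in the controls and -3.17, -0.34 and -4.29 in AFO. That of Pfkm over Pfkl was -0.57, 0.50 and 0.12 in the controls and -0.20, 2.78 and -0.66 in AFO. In both pairs the AFO pool 2 array leaned furthest to the muscle form and the AFO pool 3 array furthest away from it.

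The balance of Aldoc over Aldoa was close among the controls, at -5.99, -5.97 and -6.06, and spread in AFO, at -5.00, -7.12 and -4.66. The AFO pool 2 array was below all controls and the other AFO arrays above them. The balance of Hk2 over Hk1 was 0.11, 1.08 and 1.35 in the controls and 0.32, 1.17 and 1.35 in AFO, where pool 1 was low in both genotypes. The other pairs shifted between the genotypes by -0.40 (Pfkp over Pfkl), -0.14 (Pygb over Pygl), -0.02 (Gys2 over Gys1), 0.06 (Hk3 over Hk1) and 0.19 (Ldhb over Ldha).

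**Figure D4:**
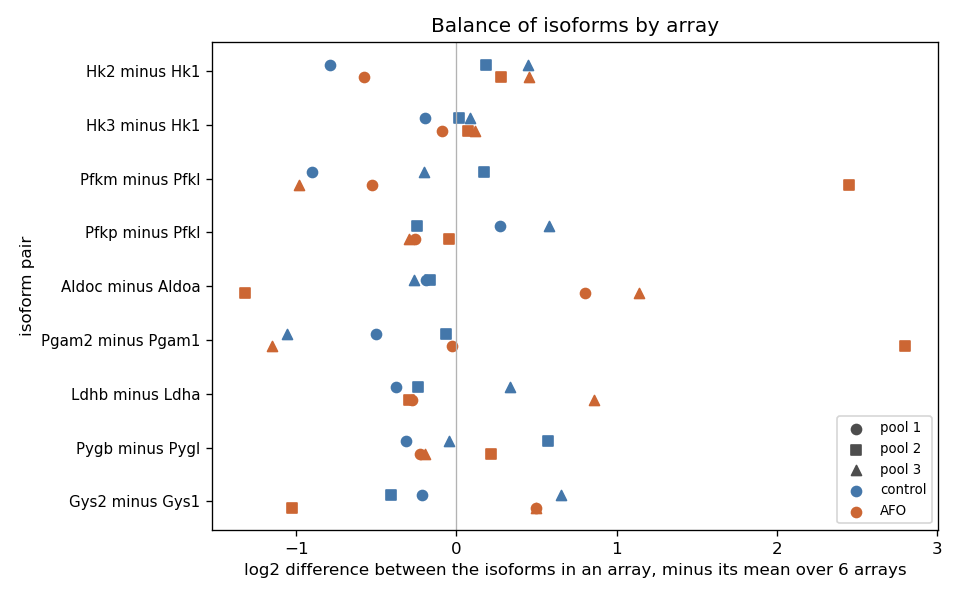
Isoform balance of the 9 pairs (y axis) on each array, as the log2 level of one form minus the other, less the mean of that difference over the 6 arrays (x axis), with colour for genotype and symbol for pool. For Pgam2 minus Pgam1 the AFO pool 2 array, at -0.34 before the mean is taken off, lies to the right of the other arrays, at -4.29 to -3.17.

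The pool 2 arrays lay both above or both below every other array in 28.6% of the 28, beside 49.7% of all genes. The spread across all 6 arrays, in which genotype and pool both enter, was wide for these genes. The 6 arrays spanned over 1 log2 unit in 10 of 28 (35.7%), beside 18.6% of all genes, namely Pfkl, Pfkm, Aldoa, Aldoc, Tpi1, Pgam2, Pkm, Pgd, Pygl and Gys2. Within pool 1, 21 of 28 were higher in AFO (median 0.20), within pool 2, 11 (median -0.10), and within pool 3, 9 (median -0.12); the medians of all genes were 0.03, -0.02 and -0.05. On the probe sets used, the direction was the same in all pools for 9 of 28 (32.1%, beside 23.5% of all genes). Aldoa, Pkm, Ldhb and Ugp2 were higher and Hk1, Hk3, Pfkp, Taldo1 and Pygb lower. The other probe set of Hk3 was higher in each pool. Another probe set above the filter changed direction between pools for Hk1, Pfkp, Aldoa, Ldhb and Ugp2, while Pkm, Taldo1 and Pygb had a single probe set. With pool number as a block, limma called 2 genes (0.016% of all) and 0 of the 28 (smallest adjusted p 0.990); 3 of the 28 then had an unadjusted p under 0.05, beside 531 of all genes and all 13 tested muscle markers. These were Pkm, with a blocked interval of 0.11 to 0.79, Aldoa, with 0.08 to 0.73, and Pfkm, with 0.03 to 1.79.

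The AFO pool 3 array was the lowest of the 6 for 11 of 28 (39.3%), beside 19.3% of all genes, among them Hk1, Ldha, Tkt and Gbe1. On that array the 3′ minus 5′ gap of control transcripts, which widens where RNA is less intact, was 0.38 for Gapdh against -0.12 to 0.19 elsewhere, 1.33 for Actb against 0.73 to 0.95, and 3.97 for Pcx against 2.98 to 3.72. Its part in the low levels was not tested.

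Further genes of glucose metabolism were taken from 7 lists, of which 73 of 87 genes were tested. In AFO 34 were higher and 39 lower, 0 were called, and 2 had an unadjusted limma p under 0.05, Fbp2 and Slc37a4. The groups did not overlap in 4 of the 73, Fbp2 and Slc37a4 among them, beside 3.43% of all genes. Fbp2, the muscle fructose bisphosphatase, was at 5.33, 5.76 and 5.61 in the controls and at 6.93, 7.14 and 6.78 in AFO. Its groups did not overlap, and its difference of 1.38 (SE 0.17) was 1.60, 1.38 and 1.17 within pools 1, 2 and 3, but its limma adjusted p was 1, and 0.184 with pool number as a block. Slc37a4, the glucose 6-phosphate transporter, was at 7.38, 7.28 and 7.32 in the controls and at 8.19, 7.44 and 8.20 in AFO. Fbp1, the liver fructose bisphosphatase, was at 5.36, 4.84 and 4.86 in the controls and at 7.87, 4.92 and 6.54 in AFO. In both, as for Aldoc, AFO pool 2 was the lowest of the AFO arrays. The Fbp1 control mean of 5.02 and its AFO pool 2 level lay under the filter on low levels. Fbp1 was therefore tested through AFO pools 1 and 3.

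Slc2a4, the insulin-responsive glucose transporter GLUT4, differed by -0.07 (SE 0.21), and the transporters Slc2a6, Slc2a13 and Slc2a1 by -0.34 (SE 0.16), -0.08 (SE 0.13) and 0.11 (SE 0.20). Among further glycolytic genes Bpgm, which makes 2,3-bisphosphoglycerate, differed by -0.45 (SE 0.20), and the ADP-dependent glucokinase Adpgk by 0.42 (SE 0.20), and the D-lactate dehydrogenase Ldhd by 0.46 (SE 0.27). Pdk4, which inhibits pyruvate dehydrogenase, differed by 0.44 (SE 0.22), its subunit Dlat by -0.11 (SE 0.19) and its phosphatase Pdp2 by 0.12 (SE 0.22). Of the pentose phosphate list, Prps2, which makes phosphoribosyl pyrophosphate, differed by 0.38 (SE 0.17), H6pd by -0.25 (SE 0.25) and Rpia by -0.17 (SE 0.19). The phosphorylase kinase subunits Phka1, the muscle form, and Phka2, the liver form, differed by 0.78 (SE 0.36) and -0.14 (SE 0.13). Mlxipl, which encodes the glucose-sensing factor ChREBP, its relative Mlxip and Foxk2 differed by -0.18 (SE 0.24), -0.14 (SE 0.23) and -0.15 (SE 0.26). Eno3 and Pygm, the muscle enolase and glycogen phosphorylase, followed the muscle sum: Eno3 was at 6.12, 8.58 and 6.09 in the controls and 8.31, 11.11 and 6.45 in AFO, and Pygm at 5.42, 8.13 and 5.30 and at 8.35, 10.88 and 5.34.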

How the data were processed

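Total RNA from 6 pools (3 control, 3 AFO) was measured on Affymetrix 3′ arrays. The deposited log2 values were made with RMA in Affymetrix Expression Console 1.4, per the submitters' processing notes. RMA normalises by quantiles, which hides any shift common to most genes, and it can understate differences of dim genes. Array medians were 5.35 to 5.43.

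Of 45101 probe sets 64 were controls, 34945 had 1 gene symbol in the platform annotation, 932 several and 9160 none listed. The probe set with the highest mean stood for a gene, and genes with a mean at or above the 40th percentile of the named probe sets (5.22) were kept. All 29 pathway genes with a probe set matched a RefSeq gene by Entrez ID. Promoter windows came from RefSeq (GRCm38.p6).

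Genotypes were compared with limma 3.58.1 in R 4.3.3 (empirical Bayes with trend, unpaired), with Benjamini-Hochberg adjustment over all 12513 genes. The fits were also run on simulated data, with noise independent between arrays and no pool effect. That run therefore does not cover spread shared by pools. Equal pool numbers were checked for pairing: deviations from the group means correlated across genes at 0.603, 0.806 and 0.605, above the 0.1 asked. Pools 1 and 3 passed crosswise too: 0.447 for control pool 1 with AFO pool 3, 0.357 for control pool 3 with AFO pool 1. The check therefore cannot decide whether pools 1 and 3 are paired by number. Within-pool differences and blocked fits take equal numbers as pairs. What a shared number stands for is not stated in the labels. Blocked counts are given beside the unblocked ones, and blocked intervals for the pathway genes with an unadjusted blocked limma p under 0.05. A blocked adjusted p is also given for Fbp2 and Aldoc. The pathway genes, the lists and the rules were chosen with earlier results of these data known. Values on every array were to be printed for called genes and those with non-overlapping groups; the other pathway genes given that way were chosen after their values were seen, as were Eno3, Cldn2 and Mmp7. Of each further list, up to 3 genes with the smallest p were named, together with Slc2a4 and Fbp2, which the rule names. Alternatives covered the filter, normalisation, choice of probe set, empirical Bayes options, array weights, the pool block and each array left out; omission of both pool 2 arrays and a filter over all probe sets (4.88) were chosen after seeing the data.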

Additional observations from a re-analysis of the deposited data

How the results depend on the processing

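Under the 19 alternatives the median difference of the 28 pathway genes moved by less than the spread between replicates. With the replicate block 2 of all genes were called, without both pool 2 arrays 74, and without both and with the block 232; leaving out 1 array gave 0 to 14, the 14 without AFO pool 2. Of the pathway genes 1, Aldoc, was called without both pool 2 arrays, with or without the block (adjusted p 0.0146 and 0.000136), where its control mean lay under the filter and the omitted pool went the other way, and 0 in the other alternatives. Non-overlapping groups numbered 1 after a further quantile normalisation, where it was Hk3 and no longer Pkm, Ugp2 and Taldo1. With the mean of probe sets they numbered 2, as Ugp2 dropped out. Without both pool 2 arrays they numbered 6 (with or without the block). With 1 array left out they numbered 3 to 8, the 8 without AFO pool 1. Smaller groups separate more readily by chance, and the share over all genes in those settings is not given here. Those counts therefore cannot be read as more separation. The sign of the difference held in every alternative for 11 of the 28 genes and turned in at least 1 for 17, so the direction of small differences is not settled. Of 16 genes with several probe sets above the filter, 13 had differences of 1 sign. The fit with array weights did not fully converge. The number of pools limits the precision.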
